A study of Mus musculus with 8 samples.

Results

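Collagens, laminins and integrins were followed as 1 group of genes in mouse embryonic stem (ES) cells carrying edits of Tbxt. The group holds every protein-coding gene whose GENCODE M21 symbol is that of a collagen chain, a laminin chain or an integrin, 86 genes of the 48440 listed in the count tables. There were 44 collagen genes, 11 laminin chains and 27 integrin subunits. The other 4 (Itgb1bp1, Itgb1bp2, Itgb3bp and Itgbl1) share the letters of an integrin symbol but encode no integrin subunit, and they were kept apart. After the filter on low counts, 68 of the 86 genes were tested, among 17049 genes in all. The 18 that were not tested were Col4a3, Col4a4, Col6a6, Col8a1, Col9a1, Col10a1, Col14a1, Col15a1, Col19a1, Col20a1, Col28a1, Itga2, Itgad, Itgax, Itgb2, Itgb2l, Itgb6 and Itgbl1. None of them had more than 11 reads in any library. Itgax and Itgb2l had 0 reads in all 8 libraries, and a count of 0 allows up to 3 reads, or 0.108 to 0.123 CPM (reads scaled to library size), in a library.

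Poly(A) RNA was sequenced at day 1 of in vitro differentiation from 4 genotypes of ES cells, with 2 libraries per genotype. All cells came from MK6, an ES cell line of C57BL/6J mice, and were moved to differentiation without feeder cells on gelatin in medium with the GSK3 inhibitor CHIR99021, which activates Wnt signalling. Wild-type cells had no edit of Tbxt, which encodes the T-box transcription factor brachyury. TbxtΔexon6/Δexon6 cells lacked exon 6 on both alleles, TbxtΔexon6/+ cells lacked it on 1 allele, and TbxtinsASAY/insASAY cells carried a human AluSx1 element in intron 5 and a human AluY element in intron 6 on both alleles. The deletions were engineered in feeder-free culture and the insertion on mouse embryonic fibroblast feeders, so the editing history differed between the lines. The TbxtΔexon6/Δexon6 libraries came from different clones, whereas the number of clones behind the other lines is not given in the sources used here. A difference between clones and a difference between genotypes therefore cannot be told apart, and p-values measure the spread between these libraries, pooled over the 4 genotypes.

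Basement membranes are thin sheets of matrix under epithelia, built on a network of laminin trimers (1 alpha, 1 beta and 1 gamma chain) and a second network of type IV collagen, with nidogen and perlecan holding them together. In the early embryo, laminins made of Lama1 or Lama5 with Lamb1 and Lamc1 chains are among the first to be laid down. Fibrillar collagens such as types I, III and V form the fibres of connective tissue and are made in quantity by fibroblasts. Integrins are receptors of 1 alpha and 1 beta subunit that bind these proteins: Itga3, Itga6 and Itga7 with Itgb1 bind laminin, Itga5 with Itgb1 binds fibronectin, and Itgav pairs with several beta subunits to bind proteins with an RGD motif.

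Each library held between 24618587 and 28445952 reads on genes. Levels of a gene are given as RPKM, its reads scaled by exon length and by library size (TMM), and as CPM, which is not scaled by length, where genes are summed. A gene was called changed where its adjusted p was under 0.05 (edgeR's quasi-likelihood test, Benjamini-Hochberg over all 17049 genes) and its log2 fold change exceeded 0.5 in either direction. The ES cell markers were read in every library, for example Pou5f1 with 4244 to 8163 reads, and the 10 markers summed to 1647 and 1597 CPM in wild-type, 1249 and 1092 in TbxtΔexon6/Δexon6, 1345 and 1286 in TbxtΔexon6/+ and 1349 and 1293 in TbxtinsASAY/insASAY libraries. Against wild-type, 5 were called lower in TbxtΔexon6/Δexon6, 2 higher and 5 lower in TbxtΔexon6/+, and 3 lower in TbxtinsASAY/insASAY cells. These are 50%, 70% and 30% of the list, against 12.7%, 13.5% and 21.3% of all tested genes. The log2 fold changes of the markers ran from -1.44 to 0.43, -2.26 to 0.81 and -1.01 to 0.45 in the same order. Tbxt was low throughout, with 47 and 42 reads in wild-type, 26 and 22 in TbxtΔexon6/Δexon6, 39 and 54 in TbxtΔexon6/+ and 30 and 29 in TbxtinsASAY/insASAY libraries. It was called lower in TbxtΔexon6/Δexon6 (-0.81, adjusted p = 0.036) and was 0.17 (adjusted p = 0.651) and -0.60 (adjusted p = 0.0826) in TbxtΔexon6/+ and TbxtinsASAY/insASAY cells on the log2 scale, and between edited lines it was called higher in TbxtΔexon6/+ than in TbxtΔexon6/Δexon6 and lower in TbxtinsASAY/insASAY than in TbxtΔexon6/+ cells (0.98 and -0.76). These are counts over the whole gene, which do not show whether exon 6 was included. The TbxtΔexon6/Δexon6 libraries differed from each other more than the libraries of any other genotype (chi-square per degree of freedom of 10.9 over genes, against 2.75 to 3.39), so for named members the values without a library are given where leaving it out ended a call. The pooled p-values do not measure the spread of this genotype alone. With only the groups compared, 23 members were called in TbxtΔexon6/Δexon6 against wild-type (11.1% of all tested genes), against 26 in the pooled fit (12.7%).

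The tested type IV collagen genes lie head to head in pairs, so their promoters are shown, as given by RefSeq for GRCm38.p6 from 250 bases before to 50 after the start, 5′ to 3′ on the strand of the gene. Capitals mark the GC box GGGCGG and the CCAAT box on either strand (CCGCCC and ATTGG where they lie on the other). The windows are chr8:11312777-11313076 on the minus strand, chr8:11312555-11312854 on the plus strand, chrX:141474027-141474326 on the minus strand and chrX:141475169-141475468 on the plus strand.
Col4a1: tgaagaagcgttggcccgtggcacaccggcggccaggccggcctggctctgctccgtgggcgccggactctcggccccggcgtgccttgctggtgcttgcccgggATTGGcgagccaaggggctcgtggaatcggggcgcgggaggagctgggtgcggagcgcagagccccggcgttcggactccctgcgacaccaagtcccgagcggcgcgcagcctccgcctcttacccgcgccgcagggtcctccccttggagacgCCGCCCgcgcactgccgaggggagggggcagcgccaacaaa
Col4a2: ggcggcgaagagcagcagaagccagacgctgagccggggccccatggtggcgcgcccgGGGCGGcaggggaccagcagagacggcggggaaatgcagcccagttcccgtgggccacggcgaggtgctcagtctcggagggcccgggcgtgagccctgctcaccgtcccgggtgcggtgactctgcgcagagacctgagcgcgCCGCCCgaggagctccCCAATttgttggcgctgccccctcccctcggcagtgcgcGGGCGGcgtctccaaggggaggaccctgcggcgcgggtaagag
Col4a6: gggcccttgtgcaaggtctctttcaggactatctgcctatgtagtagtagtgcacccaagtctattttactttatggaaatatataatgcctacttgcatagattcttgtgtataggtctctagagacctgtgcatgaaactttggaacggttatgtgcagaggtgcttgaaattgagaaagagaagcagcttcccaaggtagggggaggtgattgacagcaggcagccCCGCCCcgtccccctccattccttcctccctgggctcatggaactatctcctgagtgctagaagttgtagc
Col4a5: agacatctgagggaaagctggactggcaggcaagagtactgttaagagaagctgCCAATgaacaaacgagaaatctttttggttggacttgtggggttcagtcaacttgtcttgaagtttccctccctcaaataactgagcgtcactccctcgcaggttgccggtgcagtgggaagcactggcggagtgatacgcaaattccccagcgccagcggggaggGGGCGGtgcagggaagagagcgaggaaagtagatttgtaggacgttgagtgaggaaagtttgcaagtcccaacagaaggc
The Col4a1 and Col4a2 windows overlap by 78 bases, and the GC box of the Col4a1 window is 1 of the 3 in the Col4a2 window, read from the other strand. Their annotated starts are 21 bases apart. The GENCODE starts of Col4a6 and Col4a5 are 1309 bases apart, and their windows do not overlap. The Col4a5 window is set on the RefSeq start, which is not the GENCODE start of that gene. The first pair is rich in G and C, at 74.0% and 73.7% of bases, and the second is less so, at 48.3% and 52.7%. None of the 4 windows holds TATAAA. Over all members, RefSeq promoters were found for 62 of 86 genes (68 windows), of which 52.9% hold the GC box, 26.5% the CCAAT box and 7.35% TATAAA on either strand. Of all 32851 promoters of the same length, 35.7%, 37.4% and 13.6% hold them. The T-box element TCACACCT is in 0 of the 68 windows and in 1.28% of all promoters, which says only that these letters are not in these windows.

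Against wild-type, the genes of this group were mostly lower in TbxtΔexon6/Δexon6 and TbxtinsASAY/insASAY cells and moved in both directions in TbxtΔexon6/+ cells. Of the 68 tested members 26 were called in TbxtΔexon6/Δexon6 cells, 1 higher and 25 lower, where 12.7% of all tested genes were called (6.12% higher and 6.59% lower). In TbxtΔexon6/+ cells 25 members were called, 7 higher and 18 lower, against 13.5% of all tested genes (6.60% higher and 6.89% lower). In TbxtinsASAY/insASAY cells 34 members were called, 3 higher and 31 lower, against 21.3% of all tested genes (11.5% higher and 9.85% lower). The median log2 fold change of the tested members was -0.45, -0.17 and -0.49 in the same order, and that of all tested genes -0.0096, -0.00059 and -0.0051. At least 1 of these comparisons called 47 members and all of them called 7, while 21 tested members were called in none. The comparisons share the wild-type libraries.

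Among the comparisons with wild-type, the count in TbxtΔexon6/Δexon6 cells moved most when a library was left out. Without replicate 2 of TbxtΔexon6/Δexon6 it was 15 (1 higher and 14 lower, with 6.53% of all genes called), and without wild-type replicate 2 it was 16 (1 higher and 15 lower, with 9.11% of all genes called). With offsets for GC content and exon length it was 17 (1 higher and 16 lower), while the share of all genes called was 12.2%, close to the 12.7% of the main fit. In bulk samples, fewer cells of a type and less RNA per cell cannot be told apart.

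**Figure D1:**
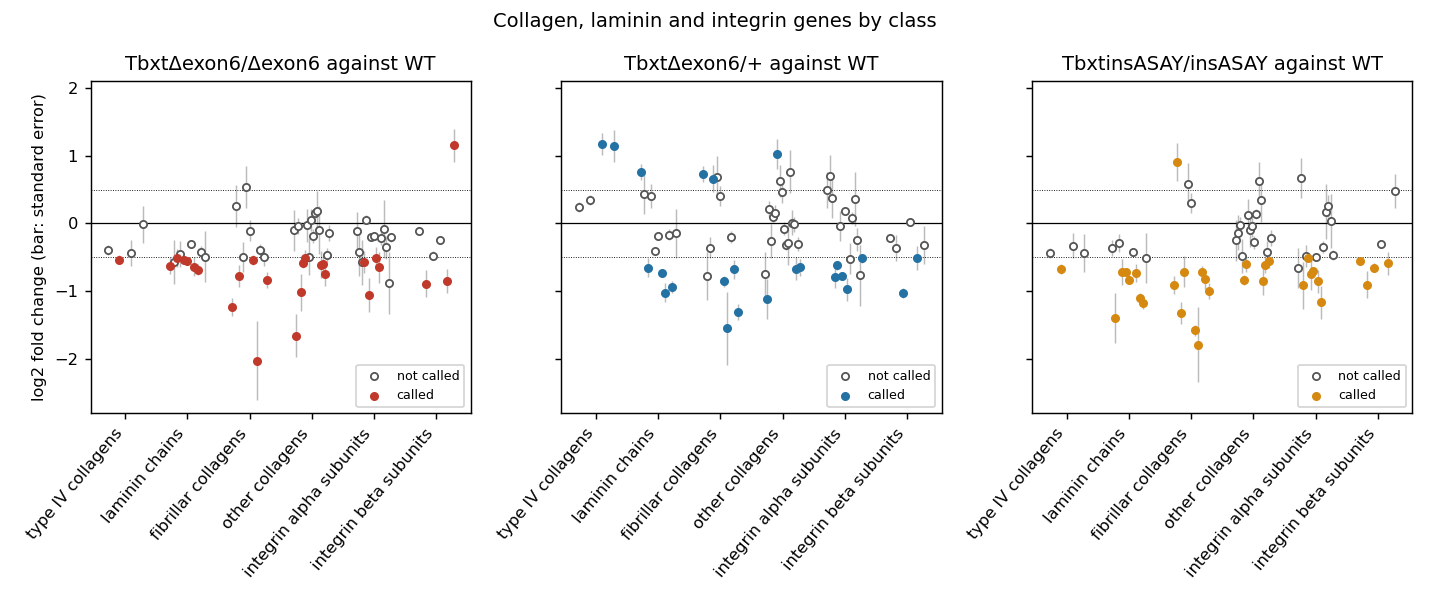
Log2 fold change of each tested collagen, laminin and integrin subunit gene against wild-type (y axis), by class (x axis), 1 panel per edited genotype. Filled points were called, open points were not, bars are 1 standard error and dotted lines mark 0.5. Called laminins lie below 0 in every panel except for Lama1 in TbxtΔexon6/+ cells at 0.76, and Itgb8 at 1.15 is the only called point above 0 in TbxtΔexon6/Δexon6 cells.

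Among the laminin chains all 11 genes were tested. Calls numbered 6 in TbxtΔexon6/Δexon6 cells, all lower. There were 5 in TbxtΔexon6/+ cells, 1 higher and 4 lower, and 7 in TbxtinsASAY/insASAY cells, all lower. The class median was -0.54, -0.18 and -0.72. Calls made up 54.5%, 45.5% and 63.6% of the laminin chains, against 12.7%, 13.5% and 21.3% of all tested genes. Without TbxtΔexon6/Δexon6 replicate 2, 3 were called lower in TbxtΔexon6/Δexon6 cells, and without wild-type replicate 2, 4. Of the reads on laminins and type IV collagens, 88.1% to 92.1% lay on laminin chains in every library.

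The most abundant gamma chain, Lamc1 (chr1:153218922-153332786 on GRCm38), which is shared by most laminins, stood at 108 and 114 RPKM in the wild-type libraries, 76.8 and 61.3 in TbxtΔexon6/Δexon6, 94.3 and 103 in TbxtΔexon6/+ and 51.7 and 51.5 in TbxtinsASAY/insASAY libraries. All 6 edited libraries were below both wild-type libraries, the TbxtinsASAY/insASAY libraries lowest. It fell 1.60-fold in TbxtΔexon6/Δexon6 cells (log2 fold change -0.68, standard error 0.0804, adjusted p = 0.00011) and 2.14-fold in TbxtinsASAY/insASAY cells (log2 fold change -1.10, standard error 0.0811, adjusted p = 1.87e-06), and was -0.17 (adjusted p = 0.132) in TbxtΔexon6/+ cells. Its beta partner Lamb1 (chr12:31265234-31329644) stood at 43.8 and 46.8 RPKM in the wild-type libraries, 31.3 and 30.2 in TbxtΔexon6/Δexon6, 37.9 and 42.0 in TbxtΔexon6/+ and 24.8 and 25.9 in TbxtinsASAY/insASAY libraries. Here too every edited library was below both wild-type libraries. The log2 fold changes of Lamb1 were -0.56 (adjusted p = 4.1e-05), -0.18 (adjusted p = 0.024) and -0.84 (adjusted p = 1.17e-06) in TbxtΔexon6/Δexon6, TbxtΔexon6/+ and TbxtinsASAY/insASAY cells, of which the first and the last were called.

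Lama5 (chr2:180176373-180225859), the alpha chain with the highest level here, stood at 73.8 and 78.4 RPKM in the wild-type libraries, 53.7 and 50.9 in TbxtΔexon6/Δexon6, 55.0 and 60.1 in TbxtΔexon6/+ and 45.6 and 47.1 in TbxtinsASAY/insASAY libraries. No edited library reached the wild-type level, and the lowest values were again in TbxtinsASAY/insASAY cells. It was called lower in TbxtΔexon6/Δexon6 (log2 fold change -0.54, standard error 0.0522, adjusted p = 3.57e-05) and TbxtinsASAY/insASAY cells (log2 fold change -0.71, standard error 0.0523, adjusted p = 1.85e-06), while in TbxtΔexon6/+ cells its log2 fold change was -0.40 (adjusted p = 7.52e-05), inside the threshold on size. Without wild-type replicate 2 the TbxtΔexon6/Δexon6 value was -0.50 and no longer called, as it was with offsets for GC content and length (-0.44).

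Lama1 (chr17:67697259-67822647), an alpha chain of early embryonic laminin, was higher in the heterozygous cells. It stood at 1.86 and 2.13 RPKM in the wild-type libraries, 1.48 and 1.12 in TbxtΔexon6/Δexon6, 3.16 and 3.61 in TbxtΔexon6/+ and 1.53 and 1.58 in TbxtinsASAY/insASAY libraries. The TbxtΔexon6/+ libraries were above all others and the TbxtΔexon6/Δexon6 and TbxtinsASAY/insASAY libraries below both wild-type libraries. It rose 1.69-fold in TbxtΔexon6/+ cells (log2 fold change 0.76, standard error 0.115, adjusted p = 0.000253) and fell 1.54-fold in TbxtΔexon6/Δexon6 cells (log2 fold change -0.63, standard error 0.125, adjusted p = 0.00228), the latter not called without TbxtΔexon6/Δexon6 replicate 2 (-0.43). In TbxtinsASAY/insASAY cells it was -0.36 (adjusted p = 0.0265). Compared directly, Lama1 was 2.61-fold higher in TbxtΔexon6/+ than in TbxtΔexon6/Δexon6 cells (log2 fold change 1.39, standard error 0.121, adjusted p = 1.69e-06).

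Lama3 and Lamb3, which encode chains of an epidermal laminin, were lower in TbxtΔexon6/+ cells as well. Lamb3 stood at 2.86 and 3.39 RPKM in the wild-type libraries, 2.22 and 1.81 in TbxtΔexon6/Δexon6, 1.37 and 1.72 in TbxtΔexon6/+ and 1.72 and 2.04 in TbxtinsASAY/insASAY libraries. All edited libraries were below both wild-type libraries, the TbxtΔexon6/+ replicate 1 library lowest. Lamb3 was called lower in all 3 lines, at -0.63 in TbxtΔexon6/Δexon6 (adjusted p = 0.0031), -1.02 in TbxtΔexon6/+ (adjusted p = 0.000112) and -0.73 in TbxtinsASAY/insASAY cells (adjusted p = 0.000677) on the log2 scale, though at -0.49 in TbxtΔexon6/Δexon6 cells without their replicate 2.

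Lama3 stood at 6.04 and 6.03 RPKM in the wild-type libraries, 5.19 and 3.30 in TbxtΔexon6/Δexon6, 3.77 and 3.92 in TbxtΔexon6/+ and 5.04 and 4.84 in TbxtinsASAY/insASAY libraries. All edited libraries were below wild-type, and the TbxtΔexon6/Δexon6 libraries stood apart, replicate 2 being the lowest of the 8. Lama3 was called lower in TbxtΔexon6/+ (log2 fold change -0.65, standard error 0.138, adjusted p = 0.00296) and in TbxtΔexon6/Δexon6 cells (log2 fold change -0.51, standard error 0.137, adjusted p = 0.0118), while TbxtinsASAY/insASAY cells had -0.29 (adjusted p = 0.0964). The TbxtΔexon6/Δexon6 call was lost without its replicate 2 (-0.22) and, by the adjusted p, without wild-type replicate 1 (0.0646) or 2 (0.0626), and also by DESeq2 (0.0768).

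Of the remaining chains, Lamb2 stood at 17.4 and 19.1 RPKM in the wild-type libraries, 14.6 and 14.9 in TbxtΔexon6/Δexon6, 10.6 and 11.4 in TbxtΔexon6/+ and 13.9 and 13.2 in TbxtinsASAY/insASAY libraries. Every edited library was below wild-type, the TbxtΔexon6/+ libraries most. Only the TbxtΔexon6/+ change was called (log2 fold change -0.73, standard error 0.0598, adjusted p = 1.72e-06), with -0.30 in TbxtΔexon6/Δexon6 and -0.43 in TbxtinsASAY/insASAY cells. Lama4 stood at 0.398 and 0.413 RPKM in the wild-type libraries, 0.352 and 0.246 in TbxtΔexon6/Δexon6, 0.546 and 0.528 in TbxtΔexon6/+ and 0.208 and 0.285 in TbxtinsASAY/insASAY libraries, with TbxtΔexon6/+ above and both other edited lines below the wild-type libraries. It was called lower in TbxtinsASAY/insASAY cells (log2 fold change -0.72, standard error 0.193, adjusted p = 0.00844), and this call was lost without TbxtinsASAY/insASAY replicate 1 (-0.51) or wild-type replicate 2 (adjusted p = 0.0502). In TbxtΔexon6/Δexon6 cells Lama4 was at -0.45 and was called only without their replicate 1 (-0.71). Lama2 and Lamc3 had between 7 and 43 reads in every library. Chosen after its values were seen, Lama2 was called lower in TbxtinsASAY/insASAY cells (log2 fold change -1.39, standard error 0.366, adjusted p = 0.00728), but not without wild-type replicate 2 (adjusted p = 0.055) or TbxtinsASAY/insASAY replicate 2 (0.0802) or by DESeq2 (0.0536).

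**Figure D2:**
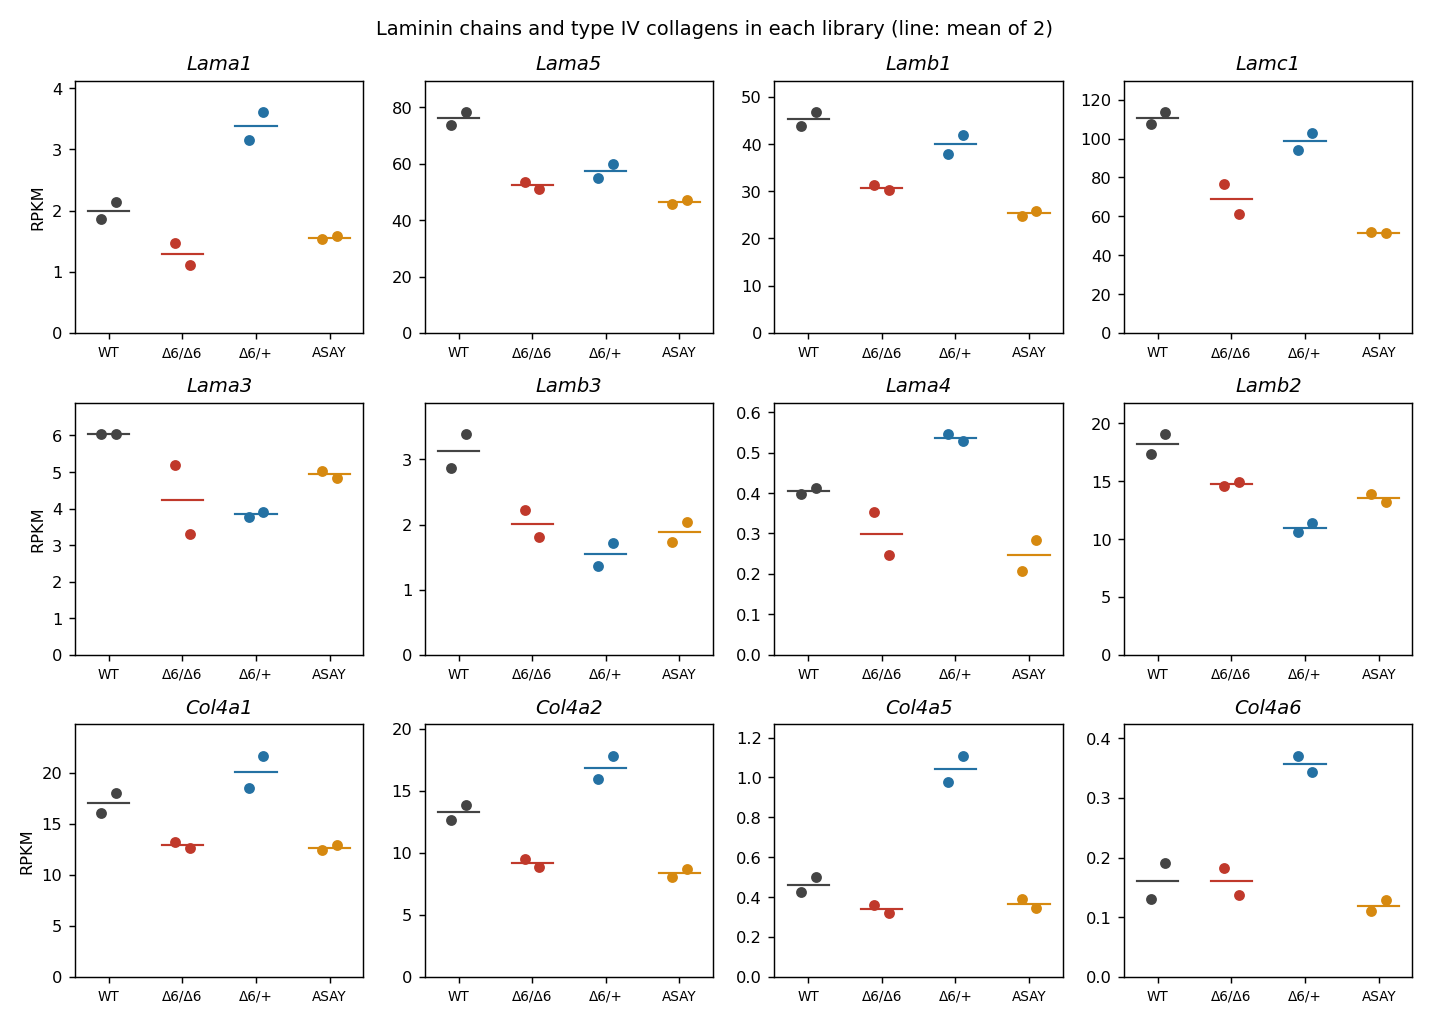
RPKM (y axis, from 0) of 8 laminin chains and the 4 tested type IV collagens in each library (x axis), where WT is wild-type, Δ6/Δ6 is TbxtΔexon6/Δexon6, Δ6/+ is TbxtΔexon6/+ and ASAY is TbxtinsASAY/insASAY, with points for libraries and lines for the mean of 2. Lamc1, Lamb1 and Lama5 are below wild-type in all edited libraries, while Lama1 and the type IV collagens are highest in TbxtΔexon6/+ libraries.

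Type IV collagen, the collagen of basement membranes, had 4 of its 6 genes tested, since Col4a3 and Col4a4 had at most 7 reads in any library. Against wild-type, 1 was called lower in TbxtΔexon6/Δexon6 cells, 2 higher in TbxtΔexon6/+ cells and 1 lower in TbxtinsASAY/insASAY cells. Of all tested genes, 6.59% were called lower, 6.60% higher and 9.85% lower in these comparisons. Between edited lines, all 4 were called higher in TbxtΔexon6/+ than in TbxtΔexon6/Δexon6 cells, where 22.2% of all tested genes were called (11.2% higher), and all 4 were called lower in TbxtinsASAY/insASAY than in TbxtΔexon6/+ cells, where 27.5% were called (13.0% lower).

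Col4a1 (chr8:11198423-11312826) and Col4a2 (chr8:11312805-11449287), which form the common type IV trimer and have the overlapping promoter windows printed above, moved together. Col4a1 stood at 16.01 and 18.04 RPKM in the wild-type libraries, 13.2 and 12.7 in TbxtΔexon6/Δexon6, 18.5 and 21.6 in TbxtΔexon6/+ and 12.4 and 12.9 in TbxtinsASAY/insASAY libraries. Col4a2 stood at 12.7 and 13.9 RPKM in the wild-type libraries, 9.55 and 8.83 in TbxtΔexon6/Δexon6, 15.9 and 17.8 in TbxtΔexon6/+ and 8.05 and 8.66 in TbxtinsASAY/insASAY libraries. For both genes the TbxtΔexon6/+ libraries were above and the other edited libraries below wild-type, with no overlap between these groups and wild-type. Col4a2 was called lower in TbxtΔexon6/Δexon6 (log2 fold change -0.53, standard error 0.0707, adjusted p = 0.000206) and TbxtinsASAY/insASAY cells (log2 fold change -0.67, standard error 0.0710, adjusted p = 1.42e-05), and at 0.34 (adjusted p = 0.00192) in TbxtΔexon6/+ cells it was inside the size threshold. The TbxtΔexon6/Δexon6 call was lost without wild-type replicate 2 (-0.47) or TbxtΔexon6/Δexon6 replicate 2 (-0.48), or with the offsets (-0.45). Col4a1 was at -0.39 (adjusted p = 0.00158), 0.24 (adjusted p = 0.0244) and -0.43 (adjusted p = 0.000427) in TbxtΔexon6/Δexon6, TbxtΔexon6/+ and TbxtinsASAY/insASAY cells, none past the size threshold, although the last became -0.52 and was called without wild-type replicate 1.

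The direct comparisons separated the lines further for this pair. Col4a1 was 1.55-fold higher in TbxtΔexon6/+ than in TbxtΔexon6/Δexon6 cells (log2 fold change 0.63, standard error 0.0738, adjusted p = 1.88e-05) and 1.59-fold lower in TbxtinsASAY/insASAY than in TbxtΔexon6/+ cells (log2 fold change -0.67, standard error 0.0737, adjusted p = 9.34e-06). Col4a2 differed by 1.84-fold (log2 fold change 0.88, standard error 0.0704, adjusted p = 8.61e-07) and 2.02-fold (log2 fold change -1.01, standard error 0.0707, adjusted p = 2.7e-07) in the same directions.

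Col4a5 (chrX:141475385-141689234) and Col4a6, the X-linked pair whose protein is found in basement membranes such as those of kidney and smooth muscle, were weak. Col4a5 stood at 0.424 and 0.499 RPKM in the wild-type libraries, 0.362 and 0.322 in TbxtΔexon6/Δexon6, 0.975 and 1.11 in TbxtΔexon6/+ and 0.391 and 0.343 in TbxtinsASAY/insASAY libraries, from 79 and 90 reads in wild-type, 60 and 59 in TbxtΔexon6/Δexon6, 173 and 182 in TbxtΔexon6/+ and 72 and 63 in TbxtinsASAY/insASAY libraries. Both TbxtΔexon6/+ libraries were above every other library, and the others lay close together. It rose 2.25-fold in TbxtΔexon6/+ cells (log2 fold change 1.17, standard error 0.160, adjusted p = 0.000117) and was -0.43 (adjusted p = 0.0864) and -0.33 (adjusted p = 0.156) in TbxtΔexon6/Δexon6 and TbxtinsASAY/insASAY cells. Col4a6, whose mean was under 2 CPM and which is named after its values were seen, had 29 and 41 reads in wild-type, 36 and 30 in TbxtΔexon6/Δexon6, 78 and 67 in TbxtΔexon6/+ and 24 and 28 in TbxtinsASAY/insASAY libraries. Of the comparisons with wild-type, that of TbxtΔexon6/+ cells called it, 2.21-fold higher (log2 fold change 1.15, standard error 0.235, adjusted p = 0.00237).

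Of the fibrillar collagens all 11 genes were tested, at levels of at most 7.76 RPKM in any library. Their summed level was 149 and 166 CPM in wild-type, 107 and 109.8 in TbxtΔexon6/Δexon6, 119.9 and 135 in TbxtΔexon6/+ and 86.8 and 84.4 in TbxtinsASAY/insASAY libraries. Calls numbered 5 in TbxtΔexon6/Δexon6 cells, all lower. There were 6 in TbxtΔexon6/+ cells, 2 higher and 4 lower, and 9 in TbxtinsASAY/insASAY cells, 1 higher and 8 lower. The medians were -0.49, -0.36 and -0.82. Of the fibrillar collagens 45.5%, 54.5% and 81.8% were called, against 12.7%, 13.5% and 21.3% of all tested genes. Without wild-type replicate 1, 4 were called in TbxtΔexon6/+ cells (1 higher and 3 lower) and 6 in TbxtinsASAY/insASAY cells, all lower, and without TbxtΔexon6/+ replicate 2 there were 4 in TbxtΔexon6/+ cells (1 higher and 3 lower). The type IV collagens and laminins summed to 2641 and 2823 CPM in wild-type libraries, and the ratio of their sum to that of the fibrillar collagens stayed between 15.8 and 18.6 over all 8 libraries. It was 17.76 and 17.01 in wild-type, 18.1 and 15.8 in TbxtΔexon6/Δexon6, 18.5 and 18.1 in TbxtΔexon6/+ and 17.7 and 18.6 in TbxtinsASAY/insASAY libraries. These are ratios of reads, with no scaling by length, and Col18a1, an abundant basement membrane collagen, is in neither sum. In this ratio both TbxtΔexon6/+ libraries were above both wild-type libraries, and the TbxtΔexon6/Δexon6 and TbxtinsASAY/insASAY libraries overlapped wild-type. Laminin chains made up most of its numerator. The type IV collagens alone summed to 207 and 232 CPM in wild-type and 166 and 156 in TbxtΔexon6/Δexon6 libraries. They were at 253 and 290 in TbxtΔexon6/+ and 150 and 157 in TbxtinsASAY/insASAY libraries. In TbxtΔexon6/+ cells they were thus above wild-type, while the fibrillar collagens were below it.

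Type I collagen, the main fibre protein of bone and skin, is encoded by Col1a1 and Col1a2. Col1a1 (chr11:94936224-94953042) stood at 1.80 and 2.17 RPKM in the wild-type libraries, 1.06 and 1.26 in TbxtΔexon6/Δexon6, 1.63 and 1.47 in TbxtΔexon6/+ and 0.949 and 0.641 in TbxtinsASAY/insASAY libraries. Each edited group was below wild-type without overlap. Col1a1 was called lower in TbxtΔexon6/Δexon6 (log2 fold change -0.77, standard error 0.160, adjusted p = 0.00281) and TbxtinsASAY/insASAY cells (log2 fold change -1.32, standard error 0.167, adjusted p = 4.81e-05), and was -0.36 (adjusted p = 0.0995) in TbxtΔexon6/+ cells. Col1a2 stood at 0.401 and 0.422 RPKM in the wild-type libraries, 0.212 and 0.369 in TbxtΔexon6/Δexon6, 0.594 and 0.710 in TbxtΔexon6/+ and 0.217 and 0.286 in TbxtinsASAY/insASAY libraries, with TbxtΔexon6/+ libraries above and the other edited libraries below wild-type. It was called higher in TbxtΔexon6/+ (log2 fold change 0.66, standard error 0.200, adjusted p = 0.0228) and lower in TbxtinsASAY/insASAY cells (log2 fold change -0.71, standard error 0.225, adjusted p = 0.0197).

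These Col1a2 calls were weak. The TbxtΔexon6/+ call was lost without either wild-type library (adjusted p = 0.129 and 0.0938) or TbxtΔexon6/+ replicate 2 (0.172). The TbxtinsASAY/insASAY call was lost without either wild-type library (adjusted p = 0.0651 and 0.0931) or TbxtinsASAY/insASAY replicate 1 (0.167). In TbxtΔexon6/Δexon6 cells Col1a2 was at -0.49 (adjusted p = 0.102), and at -0.96 and called without their replicate 2. Col3a1, which forms thin fibres with type I collagen and is abundant in fibroblasts, was close to absent, with 17 and 18 reads in wild-type, 6 and 2 in TbxtΔexon6/Δexon6, 4 and 7 in TbxtΔexon6/+ and 8 and 2 in TbxtinsASAY/insASAY libraries. All edited libraries were below both wild-type libraries, and the gene was called lower in all 3 lines, at -2.02 (adjusted p = 0.0162), -1.55 (adjusted p = 0.0441) and -1.79 (adjusted p = 0.0171) in TbxtΔexon6/Δexon6, TbxtΔexon6/+ and TbxtinsASAY/insASAY cells. At these counts the calls were fragile. Without wild-type replicate 1, wild-type replicate 2 or TbxtΔexon6/Δexon6 replicate 2 the adjusted p in TbxtΔexon6/Δexon6 cells was 0.0641, 0.0804 and 0.132. In TbxtΔexon6/+ cells it was between 0.0836 and 0.278 without any 1 of the libraries compared and 0.0517 with the replicate number as a block. In TbxtinsASAY/insASAY cells it was 0.0611, 0.0801 and 0.159 without wild-type replicate 1, wild-type replicate 2 or TbxtinsASAY/insASAY replicate 2.

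Type V collagen starts fibre assembly, and Col5a1 was the fibrillar chain with the highest level. It stood at 6.76 and 7.76 RPKM in the wild-type libraries, 5.32 and 5.78 in TbxtΔexon6/Δexon6, 5.76 and 6.95 in TbxtΔexon6/+ and 4.42 and 4.40 in TbxtinsASAY/insASAY libraries. The TbxtΔexon6/+ libraries overlapped the wild-type range and the others lay below it. Col5a1 was called lower in TbxtinsASAY/insASAY cells (log2 fold change -0.72, standard error 0.0903, adjusted p = 4.52e-05) and was -0.39 (adjusted p = 0.00518) and -0.19 (adjusted p = 0.115) in TbxtΔexon6/Δexon6 and TbxtΔexon6/+ cells. Col5a2 stood at 0.884 and 1.03 RPKM in the wild-type libraries, 0.747 and 0.616 in TbxtΔexon6/Δexon6, 0.596 and 0.601 in TbxtΔexon6/+ and 0.513 and 0.572 in TbxtinsASAY/insASAY libraries. The gene was called lower in TbxtΔexon6/+ (log2 fold change -0.68, standard error 0.140, adjusted p = 0.00242) and TbxtinsASAY/insASAY cells (log2 fold change -0.82, standard error 0.140, adjusted p = 0.000414) and was at -0.49 in TbxtΔexon6/Δexon6 cells, called there only without wild-type replicate 1 (-0.60) or TbxtΔexon6/Δexon6 replicate 1 (-0.63). Col5a3 was called lower in all 3 lines, from 3.05 and 3.34 RPKM in wild-type to 1.89 and 1.69 in TbxtΔexon6/Δexon6 (-0.84), 1.12 and 1.46 in TbxtΔexon6/+ (-1.31) and 1.55 and 1.67 in TbxtinsASAY/insASAY libraries (-0.99), and no edited library reached the wild-type range.

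Col2a1 and Col11a1 encode collagens of cartilage. Col2a1 stood at 3.24 and 3.33 RPKM in the wild-type libraries, 2.36 and 2.17 in TbxtΔexon6/Δexon6, 1.81 and 1.83 in TbxtΔexon6/+ and 1.07 and 1.13 in TbxtinsASAY/insASAY libraries. Its groups were separate, with wild-type highest and TbxtinsASAY/insASAY lowest. Col2a1 was called lower in all 3 lines, at -0.54 (adjusted p = 0.000324), -0.85 (adjusted p = 5.55e-06) and -1.58 (adjusted p = 4.19e-07) on the log2 scale in TbxtΔexon6/Δexon6, TbxtΔexon6/+ and TbxtinsASAY/insASAY cells. The first of these was inside the size threshold without TbxtΔexon6/Δexon6 replicate 2 (-0.48) or with the offsets for GC content and length (-0.45). Col11a1, on chromosome 3, stood at 0.708 and 0.753 RPKM in the wild-type libraries, 0.321 and 0.302 in TbxtΔexon6/Δexon6, 1.14 and 1.28 in TbxtΔexon6/+ and 0.426 and 0.350 in TbxtinsASAY/insASAY libraries. Col11a1 was called lower in TbxtΔexon6/Δexon6 (log2 fold change -1.23, standard error 0.138, adjusted p = 7.82e-05) and TbxtinsASAY/insASAY cells (log2 fold change -0.91, standard error 0.132, adjusted p = 0.000123) but higher in TbxtΔexon6/+ cells (log2 fold change 0.73, standard error 0.117, adjusted p = 0.000414). It differed 3.89-fold between TbxtΔexon6/+ and TbxtΔexon6/Δexon6 cells (log2 fold change 1.96, standard error 0.132, adjusted p = 2.19e-07). On chromosome 3, 28.5% of the 848 tested genes were called higher in TbxtΔexon6/+ cells with a median log2 fold change of 0.32, against 5.45% and -0.0083 on all other chromosomes. The part of this in the Col11a1 value was not tested. Without the 4 members on that chromosome (Col11a1, Col24a1, Col25a1 and Itga10), 24 members were called in TbxtΔexon6/+ cells, 6 higher and 18 lower. Col11a2, named after its values were seen, was called higher in TbxtinsASAY/insASAY cells (log2 fold change 0.90, standard error 0.281, adjusted p = 0.0178) from 9 to 35 reads per library. That call was lost without wild-type replicate 1 (adjusted p = 0.121), TbxtinsASAY/insASAY replicate 1 (0.11) or TbxtinsASAY/insASAY replicate 2 (0.0502) and by DESeq2 (0.193). Col24a1 and Col27a1 were called in no line.

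Since fibroblast feeders could bring fibrillar collagen, a list of 19 fibroblast markers without collagens was read beside them, of which 13 were tested and 1 (Lox) is also on the list of collagen enzymes below. Dpt had 0 reads in every library, Postn and Fap had at most 2, and Lum, Prrx1 and Twist2 had at most 7. Tagln and Serpinf1 made up 70.2% to 87.1% of the summed level of the list. The whole list summed to 509 and 493 CPM in wild-type, 463 and 477 in TbxtΔexon6/Δexon6, 280.5 and 293 in TbxtΔexon6/+ and 224 and 257 in TbxtinsASAY/insASAY libraries. The other 17 markers summed to 76.8 and 81.9 CPM in wild-type, 62.5 and 61.4 in TbxtΔexon6/Δexon6, 81.8 and 87.3 in TbxtΔexon6/+ and 46.6 and 49.3 in TbxtinsASAY/insASAY libraries. In the latter sum the TbxtΔexon6/Δexon6 and TbxtinsASAY/insASAY libraries were below wild-type, and the TbxtΔexon6/+ libraries reached or passed its range. Col1a1, Col1a2 and Col3a1 together were at 17.4 and 20.1 CPM in wild-type, 9.84 and 12.9 in TbxtΔexon6/Δexon6, 18.2 and 18.8 in TbxtΔexon6/+ and 9.22 and 7.83 in TbxtinsASAY/insASAY libraries. Against wild-type, 0 markers were called higher and 2 lower in TbxtΔexon6/Δexon6, 1 higher and 3 lower in TbxtΔexon6/+, and 1 higher and 7 lower in TbxtinsASAY/insASAY cells. These calls are 15.4%, 30.8% and 61.5% of the tested markers, against 12.7%, 13.5% and 21.3% of all tested genes. Both sums were lowest in TbxtinsASAY/insASAY, the line engineered on feeders. The part of fibroblast RNA in the collagen values was not tested.

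**Figure D3:**
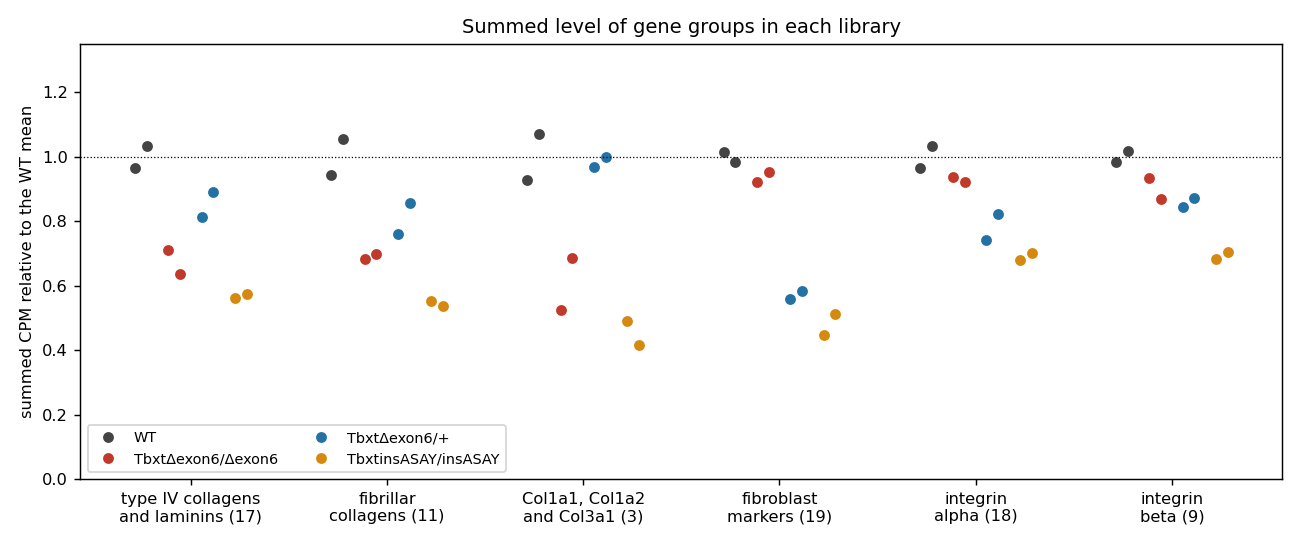
Summed CPM of 6 gene groups in each library relative to the mean of the wild-type libraries (y axis, from 0), with the number of genes in each group in brackets on the x axis and points coloured by genotype. The type IV collagens with laminins and the fibrillar collagens have the same order of lines. Both are lowest in TbxtinsASAY/insASAY libraries (0.562 and 0.575 for the former, 0.552 and 0.537 for the latter). The fibroblast markers, mostly Tagln and Serpinf1, are at 0.923 and 0.952 in TbxtΔexon6/Δexon6 libraries.

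Endoderm markers were read because parietal endoderm makes much laminin and type IV collagen. The 12 genes summed to between 14.7 and 25.5 CPM in every library, with 21.8 and 21.9 in wild-type, 18.1 and 14.7 in TbxtΔexon6/Δexon6, 25.3 and 25.5 in TbxtΔexon6/+ and 18.2 and 16.6 in TbxtinsASAY/insASAY libraries, and Ttr had 0 reads in all. Of the 9 tested, 2 were called lower in TbxtΔexon6/Δexon6, 2 higher in TbxtΔexon6/+, and 1 higher and 1 lower in TbxtinsASAY/insASAY cells. In each line 22.2% of the tested markers were called, against 12.7%, 13.5% and 21.3% of all tested genes. The sum moved in the direction of the type IV collagens, but the single markers were mixed. Their median log2 fold change was 0.043, 0.21 and -0.27, against -0.41, 0.75 and -0.43 for the type IV collagens. In TbxtΔexon6/Δexon6 cells 5 of the 9 markers were above 0. The part of endoderm RNA in the type IV values was not tested. Of 7 leukocyte markers, Ptprc, Tyrobp and Lyz2 had at most 2 reads in any library, and the list summed to 12.0 to 29.8 CPM, most of it from Laptm5 (295 to 763 reads). Of the 2 tested, Laptm5 was called lower in TbxtΔexon6/Δexon6 and Spi1 higher in TbxtinsASAY/insASAY cells.

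Of the 27 other collagen genes 18 were tested. Calls numbered 7 in TbxtΔexon6/Δexon6 cells, all lower. There were 4 in TbxtΔexon6/+ cells, 1 higher and 3 lower, and 5 in TbxtinsASAY/insASAY cells, all lower. The medians were -0.33, -0.043 and -0.23. Of the tested genes of this class 38.9%, 22.2% and 27.8% were called, against 12.7%, 13.5% and 21.3% of all tested genes. Without TbxtΔexon6/Δexon6 replicate 2, 3 were called lower in TbxtΔexon6/Δexon6 cells, and by DESeq2 4 in TbxtΔexon6/Δexon6 and 2 in TbxtΔexon6/+ cells. Col18a1 (chr10:77052178-77166548), a basement membrane collagen whose cleaved end is endostatin, had the highest level of all collagens, at 104 and 113 RPKM in the wild-type libraries, 77.9 and 66.8 in TbxtΔexon6/Δexon6, 109 and 123 in TbxtΔexon6/+ and 60.3 and 61.5 in TbxtinsASAY/insASAY libraries. The TbxtΔexon6/+ libraries overlapped wild-type, and the TbxtΔexon6/Δexon6 and TbxtinsASAY/insASAY libraries lay below. It fell 1.50-fold in TbxtΔexon6/Δexon6 (log2 fold change -0.59, standard error 0.0726, adjusted p = 0.000136) and 1.78-fold in TbxtinsASAY/insASAY cells (log2 fold change -0.83, standard error 0.0729, adjusted p = 4.24e-06), and was 0.10 (adjusted p = 0.337) in TbxtΔexon6/+ cells. Without TbxtΔexon6/Δexon6 replicate 2 the first value was -0.48, inside the size threshold, and with the offsets -0.499.

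Col7a1, which anchors epidermis to dermis, and Col22a1, a collagen of tissue junctions, were also lower in TbxtΔexon6/Δexon6 and TbxtinsASAY/insASAY cells. Col7a1 stood at 1.28 and 1.29 RPKM in the wild-type libraries, 0.933 and 0.781 in TbxtΔexon6/Δexon6, 1.21 and 1.34 in TbxtΔexon6/+ and 0.786 and 0.907 in TbxtinsASAY/insASAY libraries. It was called lower in TbxtΔexon6/Δexon6 (-0.59, adjusted p = 0.00236) and TbxtinsASAY/insASAY cells (-0.60, adjusted p = 0.00105) with -0.01 in TbxtΔexon6/+ cells, and the TbxtΔexon6/Δexon6 value was -0.46 without their replicate 2. With the offsets both calls of Col7a1 were lost (-0.495 and -0.44). Col22a1 stood at 1.67 and 1.90 RPKM in the wild-type libraries, 1.39 and 1.13 in TbxtΔexon6/Δexon6, 1.96 and 2.03 in TbxtΔexon6/+ and 1.12 and 1.24 in TbxtinsASAY/insASAY libraries. Col22a1 was called lower in TbxtΔexon6/Δexon6 (-0.51, adjusted p = 0.00435) and TbxtinsASAY/insASAY cells (-0.60, adjusted p = 0.000877), the former lost without wild-type replicate 2 (-0.42) or TbxtΔexon6/Δexon6 replicate 2 (-0.36), by DESeq2 (-0.497) and with the offsets (-0.48). Col6a5, a chain of the type VI microfibril, was at -0.61 (adjusted p = 0.031) in TbxtΔexon6/Δexon6 and -0.85 (adjusted p = 0.00413) in TbxtinsASAY/insASAY cells, both called, and 0.01 in TbxtΔexon6/+ cells. Without TbxtΔexon6/Δexon6 replicate 2 or either wild-type library the TbxtΔexon6/Δexon6 adjusted p of Col6a5 was 0.239, 0.0868 and 0.141, and by DESeq2 it was 0.0976. The more abundant type VI chains Col6a1 and Col6a2 were called in no line.

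Col23a1, a transmembrane collagen, was the only gene of this class called higher in TbxtΔexon6/+ cells. It stood at 0.340 and 0.331 RPKM in the wild-type libraries, 0.402 and 0.262 in TbxtΔexon6/Δexon6, 0.620 and 0.748 in TbxtΔexon6/+ and 0.330 and 0.402 in TbxtinsASAY/insASAY libraries. The TbxtΔexon6/+ libraries were above all others, with a 2.03-fold rise over wild-type (log2 fold change 1.02, standard error 0.217, adjusted p = 0.00289), and the other edited lines overlapped wild-type. Col8a2, a chain of short-chain collagen VIII, was called lower in TbxtΔexon6/Δexon6 (-0.75, adjusted p = 0.00384) and TbxtΔexon6/+ cells (-0.66, adjusted p = 0.00725), the latter lost without TbxtΔexon6/+ replicate 1 (adjusted p = 0.0518) or by DESeq2 (0.0542), and was -0.42 in TbxtinsASAY/insASAY cells. Of the type IX collagens of cartilage, Col9a3 was called lower in TbxtΔexon6/+ cells (-0.65, adjusted p = 0.00129) and Col9a2 in TbxtinsASAY/insASAY cells (-0.56, adjusted p = 0.000862). The latter was lost without wild-type replicate 2 (-0.47) or TbxtinsASAY/insASAY replicate 1 (-0.43), or with the offsets (-0.48). In TbxtΔexon6/Δexon6 cells Col9a2 was at -0.46 and called only without wild-type replicate 1 (-0.54) or TbxtΔexon6/Δexon6 replicate 2 (-0.52).

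Integrin subunits had 21 of 27 genes tested. In TbxtΔexon6/Δexon6 cells 1 was called higher and 6 lower, in TbxtΔexon6/+ cells 7 were called, all lower, and in TbxtinsASAY/insASAY cells 10 were called, all lower. Of all tested genes, 12.7%, 13.5% and 21.3% were called in these comparisons, 6.59%, 6.89% and 9.85% lower. The medians of the integrin subunits were -0.35, -0.32 and -0.50. Of the alpha subunits 4 were called lower in TbxtΔexon6/Δexon6 cells, but 2 without TbxtΔexon6/Δexon6 replicate 2 1 without either wild-type library, 1 by DESeq2 and 2 with the offsets or with only the groups compared. In TbxtinsASAY/insASAY cells 6 were called lower, and 4 without wild-type replicate 2, TbxtinsASAY/insASAY replicate 1 or TbxtinsASAY/insASAY replicate 2. In TbxtΔexon6/+ cells 5 were called lower, and 3 without TbxtΔexon6/+ replicate 1. The summed alpha subunits were at 0.938 and 0.921 of the wild-type mean in TbxtΔexon6/Δexon6, 0.743 and 0.821 in TbxtΔexon6/+ and 0.680 and 0.703 in TbxtinsASAY/insASAY libraries. The summed beta subunits were at 0.935 and 0.868, 0.846 and 0.871, and 0.684 and 0.704 in the same order.

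Itgb1 (chr8:128685654-128733200), the beta subunit of most laminin, collagen and fibronectin receptors, had the highest level of all members, at 163 and 169 RPKM in the wild-type libraries, 159 and 148 in TbxtΔexon6/Δexon6, 140.3 and 145 in TbxtΔexon6/+ and 111 and 115 in TbxtinsASAY/insASAY libraries. The edited groups were below wild-type in each case, TbxtinsASAY/insASAY most. Only the TbxtinsASAY/insASAY change was called (log2 fold change -0.55, standard error 0.0481, adjusted p = 4.08e-06), and TbxtΔexon6/Δexon6 and TbxtΔexon6/+ cells had -0.11 (adjusted p = 0.0791) and -0.22 (adjusted p = 0.00368). Itgb5, a partner of Itgav that binds vitronectin, stood at 26.1 and 27.4 RPKM in the wild-type libraries, 23.6 and 21.4 in TbxtΔexon6/Δexon6, 27.0 and 27.4 in TbxtΔexon6/+ and 21.9 and 21.4 in TbxtinsASAY/insASAY libraries. It was called in no line, with -0.25, 0.02 and -0.30 in TbxtΔexon6/Δexon6, TbxtΔexon6/+ and TbxtinsASAY/insASAY cells.

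Among laminin-binding alpha subunits, Itga3 (chr11:95044474-95076801) stood at 58.3 and 63.7 RPKM in the wild-type libraries, 62.5 and 64.3 in TbxtΔexon6/Δexon6, 37.5 and 42.0 in TbxtΔexon6/+ and 40.8 and 45.2 in TbxtinsASAY/insASAY libraries. The TbxtΔexon6/Δexon6 libraries overlapped the wild-type range and the TbxtΔexon6/+ and TbxtinsASAY/insASAY libraries were below it. Itga3 was called lower in TbxtΔexon6/+ (log2 fold change -0.62, standard error 0.0651, adjusted p = 1.4e-05) and TbxtinsASAY/insASAY cells (log2 fold change -0.50, standard error 0.0649, adjusted p = 5.36e-05) and was 0.06 (adjusted p = 0.527) in TbxtΔexon6/Δexon6 cells. The TbxtinsASAY/insASAY value lay at the threshold, and was -0.44 without wild-type replicate 2 and -0.43 without TbxtinsASAY/insASAY replicate 1, and with the offsets -0.42. Between TbxtΔexon6/+ and TbxtΔexon6/Δexon6 cells Itga3 differed by -0.67 on the log2 scale (adjusted p = 4.08e-06), and between TbxtinsASAY/insASAY and TbxtΔexon6/Δexon6 cells by -0.56 (adjusted p = 0.000109), the latter -0.49 and not called without TbxtinsASAY/insASAY replicate 1.

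Itga6 stood at 27.4 and 28.5 RPKM in the wild-type libraries, 25.7 and 23.4 in TbxtΔexon6/Δexon6, 30.3 and 33.1 in TbxtΔexon6/+ and 19.9 and 19.8 in TbxtinsASAY/insASAY libraries. It was called in no line against wild-type, at -0.19 (adjusted p = 0.0188), 0.18 (adjusted p = 0.0258) and -0.49 (adjusted p = 2.3e-05) in TbxtΔexon6/Δexon6, TbxtΔexon6/+ and TbxtinsASAY/insASAY cells, the last passing 0.5 without wild-type replicate 1 (-0.52) or TbxtΔexon6/Δexon6 replicate 1 (-0.50). Directly compared, Itga6 was 1.59-fold lower in TbxtinsASAY/insASAY than in TbxtΔexon6/+ cells (log2 fold change -0.67, standard error 0.0564, adjusted p = 1.02e-06). Itga7, the laminin receptor subunit of muscle, was weak and called lower in all 3 lines, at -0.51 (adjusted p = 0.0267), -0.97 (adjusted p = 0.000787) and -0.85 (adjusted p = 0.00104) in TbxtΔexon6/Δexon6, TbxtΔexon6/+ and TbxtinsASAY/insASAY cells. The first was lost without wild-type replicate 2 (-0.29) or TbxtΔexon6/Δexon6 replicate 2 (-0.40), by DESeq2 (adjusted p = 0.0646) and with the offsets (0.0539).

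Itgb4, the partner of Itga6 in hemidesmosomes, stood at 5.48 and 5.56 RPKM in the wild-type libraries, 3.99 and 3.95 in TbxtΔexon6/Δexon6, 2.69 and 2.75 in TbxtΔexon6/+ and 3.45 and 3.57 in TbxtinsASAY/insASAY libraries. The 4 groups were separate, with TbxtΔexon6/+ lowest. It was called lower in TbxtΔexon6/+ (log2 fold change -1.02, standard error 0.0692, adjusted p = 3.96e-07) and TbxtinsASAY/insASAY cells (log2 fold change -0.65, standard error 0.0670, adjusted p = 1.11e-05), and at -0.48 (adjusted p = 0.000274) in TbxtΔexon6/Δexon6 cells was inside the size threshold.

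**Figure D4:**
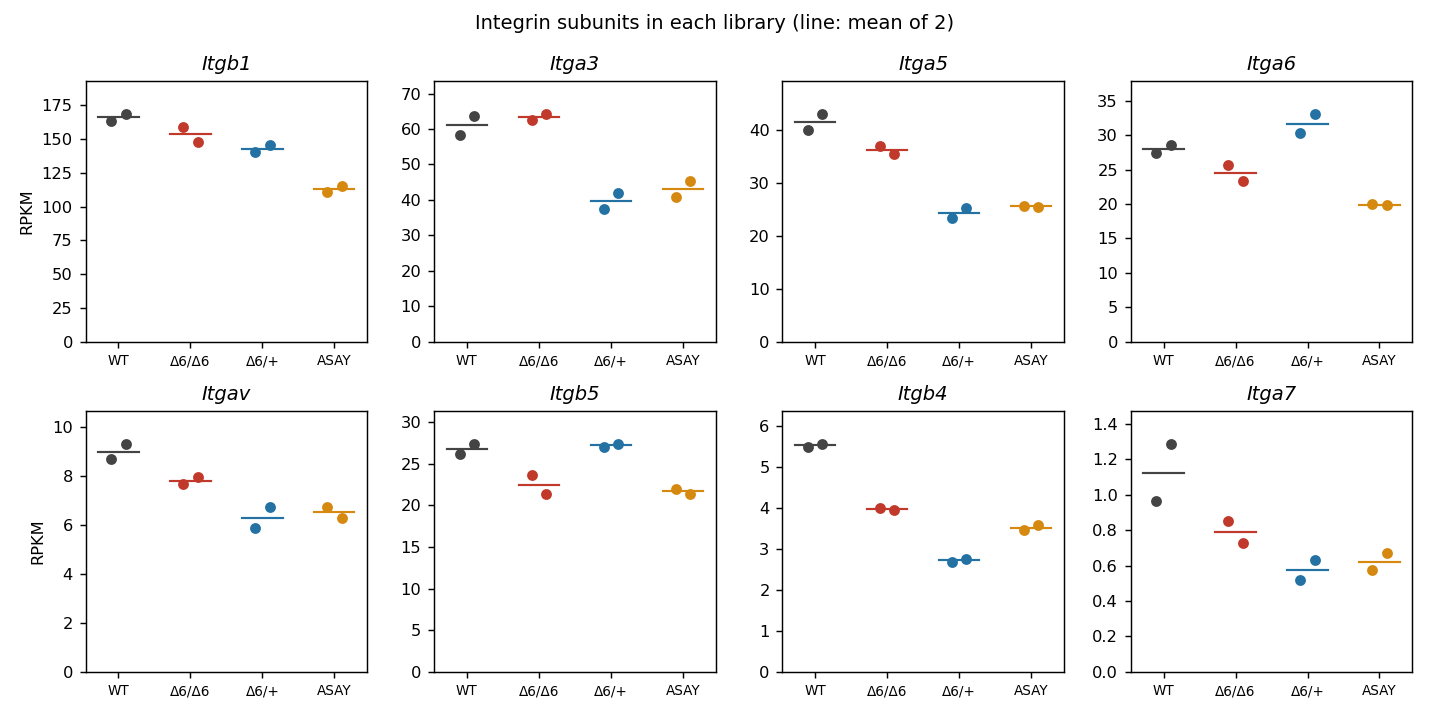
RPKM (y axis, from 0) of 8 integrin subunits in each library (x axis), where WT is wild-type, Δ6/Δ6 is TbxtΔexon6/Δexon6, Δ6/+ is TbxtΔexon6/+ and ASAY is TbxtinsASAY/insASAY, with points for libraries and lines for the mean of 2. Itga3 is at the wild-type level in TbxtΔexon6/Δexon6 libraries (62.5 and 64.3) and lower in TbxtΔexon6/+ and TbxtinsASAY/insASAY libraries, and Itga5 is lowest in both these lines.

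Among receptors for fibronectin and other RGD proteins, Itga5 (chr15:103344286-103366763) stood at 40.1 and 43.2 RPKM in the wild-type libraries, 37.1 and 35.6 in TbxtΔexon6/Δexon6, 23.4 and 25.3 in TbxtΔexon6/+ and 25.8 and 25.6 in TbxtinsASAY/insASAY libraries. All edited libraries were below wild-type, the TbxtΔexon6/+ and TbxtinsASAY/insASAY libraries well below TbxtΔexon6/Δexon6. Itga5 was called lower in TbxtΔexon6/+ (log2 fold change -0.77, standard error 0.0534, adjusted p = 4.52e-07) and TbxtinsASAY/insASAY cells (log2 fold change -0.70, standard error 0.0531, adjusted p = 2.01e-06) and was -0.20 (adjusted p = 0.0114) in TbxtΔexon6/Δexon6 cells. Its difference between TbxtΔexon6/+ and TbxtΔexon6/Δexon6 cells was -0.58 (adjusted p = 2.88e-06) and that between TbxtinsASAY/insASAY and TbxtΔexon6/Δexon6 cells -0.50 (adjusted p = 5.79e-05). The latter lay at the threshold and was inside it without TbxtΔexon6/Δexon6 replicate 1 (-0.49), without TbxtinsASAY/insASAY replicate 2 (-0.4996), with only the groups compared (-0.499), with at least 10 reads in every library (-0.49) and with the offsets (-0.496). Itgav stood at 8.67 and 9.31 RPKM in the wild-type libraries, 7.66 and 7.95 in TbxtΔexon6/Δexon6, 5.86 and 6.72 in TbxtΔexon6/+ and 6.74 and 6.27 in TbxtinsASAY/insASAY libraries. Itgav was called lower in TbxtΔexon6/+ cells (log2 fold change -0.51, standard error 0.0684, adjusted p = 9.5e-05), not without wild-type replicate 2 (-0.46) or TbxtΔexon6/+ replicate 1 (-0.42). In TbxtinsASAY/insASAY cells it was at -0.47 and passed 0.5 without wild-type replicate 1 or TbxtinsASAY/insASAY replicate 1 (-0.52 in both cases).

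Of the weaker subunits, Itgb8, which pairs with Itgav to release TGF-beta, was the only member called higher in TbxtΔexon6/Δexon6 cells. It had 45 and 55 reads in wild-type, 77 and 136 in TbxtΔexon6/Δexon6, 43 and 32 in TbxtΔexon6/+ and 71 and 69 in TbxtinsASAY/insASAY libraries. The TbxtΔexon6/Δexon6 libraries were above wild-type but far from each other, and the TbxtinsASAY/insASAY libraries were above wild-type too. It rose 2.22-fold in TbxtΔexon6/Δexon6 cells (log2 fold change 1.15, standard error 0.238, adjusted p = 0.00279) and was -0.32 (adjusted p = 0.436) and 0.48 (adjusted p = 0.139) in TbxtΔexon6/+ and TbxtinsASAY/insASAY cells. Itgb7, a subunit of lymphocyte receptors, was called lower in all 3 lines, at -0.84 (adjusted p = 0.00296), -0.51 (adjusted p = 0.0369) and -0.58 (adjusted p = 0.0128) in TbxtΔexon6/Δexon6, TbxtΔexon6/+ and TbxtinsASAY/insASAY cells. The TbxtΔexon6/+ call was lost without any 1 of the wild-type replicate 1, TbxtΔexon6/+ or TbxtinsASAY/insASAY libraries, at -0.31 without the first, and the TbxtinsASAY/insASAY call without wild-type replicate 1 (-0.39) or TbxtinsASAY/insASAY replicate 2 (adjusted p = 0.0843). By DESeq2 both calls were lost (0.157 and 0.0601).

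Itgb3, the platelet fibrinogen receptor subunit, was called lower in TbxtΔexon6/Δexon6 (-0.89, adjusted p = 0.00437) and TbxtinsASAY/insASAY cells (-0.90, adjusted p = 0.00223), the former lost without wild-type replicate 2 (adjusted p = 0.053), and was -0.37 in TbxtΔexon6/+ cells. Its platelet partner Itga2b was called lower in TbxtΔexon6/Δexon6 (-0.57, adjusted p = 0.0156) and TbxtΔexon6/+ cells (-0.78, adjusted p = 0.00283) and was -0.48 in TbxtinsASAY/insASAY cells. The TbxtΔexon6/Δexon6 call of Itga2b was lost without either wild-type library (adjusted p = 0.0914 and 0.0578) or by DESeq2 (0.082), and the TbxtΔexon6/+ call without TbxtΔexon6/+ replicate 1 (0.0513). Itga4, which binds fibronectin and VCAM1, was called lower in TbxtΔexon6/Δexon6 (-1.06, adjusted p = 0.00559) and TbxtinsASAY/insASAY cells (-0.75, adjusted p = 0.0188) and was -0.04 in TbxtΔexon6/+ cells. These calls were lost without wild-type replicate 1 (0.0506 in TbxtΔexon6/Δexon6 and 0.116 in TbxtinsASAY/insASAY cells), and the TbxtinsASAY/insASAY call without either TbxtinsASAY/insASAY library as well (0.0985 and 0.0726) or by DESeq2 (0.064).

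Of the 4 genes that are no integrin subunit, 3 were tested. Itgb3bp, a centromere protein also known as CENP-R, was called higher in TbxtΔexon6/+ (log2 fold change 0.55, standard error 0.147, adjusted p = 0.012) and TbxtinsASAY/insASAY cells (log2 fold change 0.80, standard error 0.143, adjusted p = 0.000592), with 1.04 and 0.956 RPKM in wild-type, 1.48 and 1.45 in TbxtΔexon6/+ and 1.68 and 1.80 in TbxtinsASAY/insASAY libraries. The TbxtΔexon6/+ call was lost without wild-type replicate 2 (0.49) or, by the adjusted p, either TbxtΔexon6/+ library (0.0766 and 0.0544). In TbxtΔexon6/Δexon6 cells it was at 0.42 and called only without their replicate 1 (0.59). Itgb1bp2, with 4 to 17 reads in a library and named after its values were seen, was called higher in TbxtinsASAY/insASAY cells (1.50, adjusted p = 0.0332). The Itgb1bp2 call was lost without wild-type replicate 1 (adjusted p = 0.165), wild-type replicate 2 (0.0982), TbxtinsASAY/insASAY replicate 2 (0.288) or either TbxtΔexon6/+ library (0.0515 and 0.0514), and DESeq2 gave it no adjusted p. Itgb1bp1 was called in no line.

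Comparing the edited lines with each other, 29 members were called between TbxtΔexon6/+ and TbxtΔexon6/Δexon6 cells, 22 higher and 7 lower in TbxtΔexon6/+, where 22.2% of all tested genes were called. Between TbxtinsASAY/insASAY and TbxtΔexon6/+ cells 31 were called, 4 higher and 27 lower in TbxtinsASAY/insASAY, where 27.5% were called. Between TbxtinsASAY/insASAY and TbxtΔexon6/Δexon6 cells 7 were called, 3 higher and 4 lower, where 5.16% of all genes were called (2.79% higher and 2.38% lower). The last count was 4 without TbxtinsASAY/insASAY replicate 1 and 3 without TbxtinsASAY/insASAY replicate 2. The genes called lower in TbxtinsASAY/insASAY than in TbxtΔexon6/Δexon6 cells included Col2a1 (-1.04), Itga3 (-0.56) and Itga5 (-0.50), of which the calls of Itga3 and Itga5 did not hold in every setting, as given above. The 3 called higher, named after their values were seen, were Itgal (0.61, adjusted p = 0.0246), Itga10 (1.09, adjusted p = 0.0347) and Col13a1 (1.52, adjusted p = 0.00725). None of these 3 was called higher without TbxtinsASAY/insASAY replicate 1 (adjusted p = 0.151, 0.204 and 0.0533) or without TbxtinsASAY/insASAY replicate 2 (0.109, 0.104 and 0.0502). The Itga10 call was also lost without any 1 of the TbxtΔexon6/Δexon6 and TbxtΔexon6/+ libraries (adjusted p from 0.0562 to 0.0765). DESeq2 gave Itgal an adjusted p of 0.137 and the other two none. The median log2 fold change of the tested members was 0.28, -0.25 and -0.09 in these comparisons.

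The partners of these proteins were read from lists of other genes. Of 15 basement membrane partners, 0 were called higher and 2 lower in TbxtΔexon6/Δexon6 cells, 5 higher and 2 lower in TbxtΔexon6/+ cells, and 2 higher and 8 lower in TbxtinsASAY/insASAY cells, with medians of -0.38, -0.085 and -0.50. In all, 13.3%, 46.7% and 66.7% of the list were called, against 12.7%, 13.5% and 21.3% of all tested genes. Hspg2, which encodes perlecan, was called lower in all 3 lines, at -0.59 (adjusted p = 3.21e-05), -0.67 (adjusted p = 2.05e-06) and -1.09 (adjusted p = 4.19e-07), from 39201 and 41059 reads in wild-type to 18201 and 19606 in TbxtinsASAY/insASAY libraries. The linker Nid2 was called lower in TbxtΔexon6/Δexon6 (-0.95, adjusted p = 0.0001) and TbxtinsASAY/insASAY cells (-1.13, adjusted p = 8.79e-06) and was -0.08 (adjusted p = 0.603) in TbxtΔexon6/+ cells. In TbxtΔexon6/+ cells the genes called higher were Npnt, Smoc1 and the Fraser complex genes Fras1, Frem1 and Frem2, whose products join skin basement membrane to dermis. Frem2 and Npnt lie on chromosome 3. Frem2 had 5155 and 4968 reads in wild-type, 3651 and 3657 in TbxtΔexon6/Δexon6, 16481 and 16300 in TbxtΔexon6/+ and 3684 and 3495 in TbxtinsASAY/insASAY libraries, and the TbxtΔexon6/+ libraries stood far above all others (log2 fold change 1.80, standard error 0.0548, adjusted p = 7.19e-10).

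Of 28 genes for enzymes and helpers that make and process collagen, 1 was called higher and 3 lower in TbxtΔexon6/Δexon6, 1 higher and 5 lower in TbxtΔexon6/+, and 1 higher and 4 lower in TbxtinsASAY/insASAY cells, with medians of -0.15, -0.083 and -0.20. That is 14.3%, 21.4% and 17.9% of the list, against 12.7%, 13.5% and 21.3% of all tested genes. The collagen chaperone gene Serpinh1 had 15212 and 14422 reads in wild-type, 13649 and 15551 in TbxtΔexon6/Δexon6, 15844 and 15069 in TbxtΔexon6/+ and 13783 and 14121 in TbxtinsASAY/insASAY libraries and was called in no line. Loxl2, a crosslinking enzyme, was called higher in TbxtΔexon6/Δexon6 (1.29, adjusted p = 0.000131) and TbxtinsASAY/insASAY cells (1.12, adjusted p = 0.000109) and was 0.13 in TbxtΔexon6/+ cells. Of 20 genes of the machinery that links integrins to actin, 1 was called lower in TbxtΔexon6/Δexon6, 5 in TbxtΔexon6/+ and 3 in TbxtinsASAY/insASAY cells and none higher, with medians of 0.09, -0.30 and -0.27. Among 12 other matrix ligands and receptors, 11 of them tested, 3, 4 and 5 were called lower and none higher in TbxtΔexon6/Δexon6, TbxtΔexon6/+ and TbxtinsASAY/insASAY cells, with medians of -0.052, -0.36 and -0.45. Of the tested genes of this list, 27.3%, 36.4% and 45.5% were called, against 12.7%, 13.5% and 21.3% of all tested genes. The list included Fn1, the fibronectin ligand of Itga5, with 33367 and 33515 reads in wild-type, 18711 and 16581 in TbxtΔexon6/Δexon6, 25046 and 23613 in TbxtΔexon6/+ and 14495 and 14991 in TbxtinsASAY/insASAY libraries. It was called lower in TbxtΔexon6/Δexon6 (log2 fold change -0.84, standard error 0.0752, adjusted p = 2.28e-05) and TbxtinsASAY/insASAY cells (log2 fold change -1.19, standard error 0.0758, adjusted p = 9.68e-07) and was -0.36 (adjusted p = 0.00264) in TbxtΔexon6/+ cells.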

How the data were processed

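RNA sequencing counts of 8 libraries, 2 for each of 4 genotypes, were analysed. Per the submitters' processing notes, STAR 2.7.2a and the build mm10 were used, and the authors deposited raw read counts per gene without normalization. The authors tested them with DESeq2 1.40.2. STAR's reverse-strand column was used, the opposite strand having 4.11% to 4.78% of reads, and its summary lines were left out (1 wild-type file has none). Symbols, coordinates and exon lengths are from GENCODE M21, which matched 48058 of 48440 identifiers (version suffixes ignored).

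In R 4.3.3 with edgeR 4.0.16, counts were scaled by TMM, filtered by filterByExpr (minimum count 10, minimum total 15) and fitted by the quasi-likelihood method with 1 coefficient per genotype over all 8 libraries. The log2 fold changes, standard errors and adjusted p-values in the text are from this fit, with Benjamini-Hochberg adjustment over 17049 genes. Calls required both an adjusted p below 0.05 and a change of more than 0.5 on the log2 scale. The steps were tested on simulated counts. DESeq2 1.42.0 was an alternative, besides other filters, size factors, strand, block and left-out libraries. The offsets for GC content and length were added after seeing the data. Named were 17 chains whatever their values and every other member called against wild-type with a mean of at least 2 CPM. The members and lists were chosen with earlier results of these data known. Promoters are from RefSeq (GRCm38.p6). Tables and plots used Python 3.11.15, pandas 2.3.3 and matplotlib 3.10.9. Isoforms were not analysed here, and 1 member is counted but its values are not reported here.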

Additional observations from a re-analysis of the deposited data

Results flagged for a closer look

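For 3 members an edited line was called higher and another lower against wild-type, and the direct comparison of these lines was called too, by edgeR's quasi-likelihood test with p-values adjusted over all genes. In the shared fit the direct value follows from the values against wild-type, so its call is no separate support. Col11a1 was 1.96 higher on the log2 scale in TbxtΔexon6/+ than in TbxtΔexon6/Δexon6 cells (adjusted p = 2.19e-07) and -1.64 in TbxtinsASAY/insASAY against TbxtΔexon6/+ cells (adjusted p = 5.79e-07), with both libraries of each line in that order. Lama1 was 1.39 higher in TbxtΔexon6/+ than in TbxtΔexon6/Δexon6 cells (adjusted p = 1.69e-06). Col1a2 was -1.37 in TbxtinsASAY/insASAY against TbxtΔexon6/+ cells (adjusted p = 0.000155). The calls of Col1a2 against wild-type and that of Lama1 in TbxtΔexon6/Δexon6 cells did not hold with every library left out, as given above. Col11a1 lies on chromosome 3, where the median log2 fold change of all 848 tested genes was 0.32 in TbxtΔexon6/+ cells against wild-type, and Lama1 and Col1a2 lie on chromosomes 17 and 6.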

How the results depend on the processing

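With each library left out in turn, the members called ran from 15 to 28 in TbxtΔexon6/Δexon6 against wild-type, 19 to 26 in TbxtΔexon6/+ against wild-type, 27 to 35 in TbxtinsASAY/insASAY against wild-type, 23 to 28 in TbxtΔexon6/+ against TbxtΔexon6/Δexon6, 3 to 9 in TbxtinsASAY/insASAY against TbxtΔexon6/Δexon6 and 25 to 31 in TbxtinsASAY/insASAY against TbxtΔexon6/+ cells. The share of all tested genes called also moved with the library left out. Under other settings, counts moved by over 1.5 times in these cases. That of TbxtΔexon6/Δexon6 against wild-type was 17 with offsets for GC content and length, where 12.2% of all tested genes were called. That of TbxtinsASAY/insASAY against TbxtΔexon6/Δexon6 was 4 by DESeq2, 4 with only the groups compared and 15 with no threshold on the log2 fold change. Of all genes fitted, 2.11%, 3.47% and 15.4% were called in these settings. The cause was not tested, except that the last setting adds genes by its construction. By DESeq2 the counts against wild-type were 18, 21 and 27, where 5.64%, 6.38% and 10.2% of all genes with reads were called. Of the calls of named genes against wild-type, DESeq2 ended those of Itga2b, Itga7, Lama3, Col22a1 and Col6a5 in TbxtΔexon6/Δexon6, Itgb7 and Col8a2 in TbxtΔexon6/+, and Itga4 and Itgb7 in TbxtinsASAY/insASAY cells. The offsets ended those of Col2a1, Itga2b (-0.497), Itga7, Lama3 (-0.48), Lama5, Col18a1, Col22a1, Col7a1 and Col4a2 in TbxtΔexon6/Δexon6, Itgb7 (-0.39) in TbxtΔexon6/+, and Itga3, Col7a1 and Col9a2 in TbxtinsASAY/insASAY cells. Fewer calls were ended by unstranded counts (Lama3 in TbxtΔexon6/Δexon6 at -0.499, Itga4 in TbxtinsASAY/insASAY with an adjusted p of 0.0567), by only the groups compared (Itga7 and Col6a5 in TbxtΔexon6/Δexon6, adjusted p = 0.0579 and 0.0751), and, for Itga3 in TbxtinsASAY/insASAY cells, by DESeq2's size factors in edgeR (-0.4999) and by at least 10 reads in every library (-0.498).

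With the replicate number as a block, the counts were 27, 24 and 34 against wild-type in TbxtΔexon6/Δexon6, TbxtΔexon6/+ and TbxtinsASAY/insASAY cells, 27 for TbxtΔexon6/+ against TbxtΔexon6/Δexon6, 7 for TbxtinsASAY/insASAY against TbxtΔexon6/Δexon6 and 30 for TbxtinsASAY/insASAY against TbxtΔexon6/+ cells. Of all tested genes, 12.5%, 13.2%, 21.2%, 22.0%, 4.86% and 27.3% were called in the same order. Same-numbered libraries did not deviate together (correlations from -0.0097 to 0.049). Whether they were prepared together is not given in the sources used here, and these correlations cannot show it. Of named values against wild-type the block changed the calls of Col1a2 in TbxtΔexon6/Δexon6 (-0.52, gained) and Col3a1 in TbxtΔexon6/+ cells (lost).

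No called value of a named gene reversed. Uncalled values that changed sign did so with unstranded counts for Itga4 in TbxtΔexon6/+ cells (0.056) and with the offsets for Col23a1 in TbxtΔexon6/Δexon6 (0.024), Col6a5 in TbxtΔexon6/+ (-0.051) and Col7a1 in TbxtΔexon6/+ cells (0.055). With a library left out in turn, the log2 fold changes ran from -0.0060 to 0.12 for Itga3 and from -0.35 to 0.26 for Col23a1 in TbxtΔexon6/Δexon6, from -0.15 to 0.063 for Itga4, from -0.011 to 0.058 for Itgb5, from -0.089 to 0.11 for Col6a5 and from -0.085 to 0.060 for Col7a1 in TbxtΔexon6/+, and from -0.025 to 0.26 for Col23a1 in TbxtinsASAY/insASAY cells. DESeq2 gave no adjusted p for 8, 2 and 2 tested members against wild-type, Col3a1 among them, and they enter no count of lost calls. At this depth 18 members had too few reads to be tested.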

Other observations

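Col1a1 and Itga3 lie 91431 bases apart on chromosome 11, tail to tail, and in TbxtΔexon6/Δexon6 cells Col1a1 was at -0.77 (adjusted p = 0.00281) and Itga3 at 0.06 (adjusted p = 0.527) on the log2 scale against wild-type, by edgeR's quasi-likelihood test with adjusted p-values. Whether they differed from each other was not tested.

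Among the weakest tested members, named after their values were seen, Col13a1, a transmembrane collagen, had 31 and 39 reads in wild-type, 11 and 10 in TbxtΔexon6/Δexon6, 17 and 13 in TbxtΔexon6/+ and 31 and 33 in TbxtinsASAY/insASAY libraries, and was at -1.65 (adjusted p = 0.00184), -1.12 (adjusted p = 0.0113) and -0.13 (adjusted p = 0.695) in TbxtΔexon6/Δexon6, TbxtΔexon6/+ and TbxtinsASAY/insASAY cells. Itga8, a receptor subunit of kidney development, had 60 and 52 reads in wild-type, 33 and 35 in TbxtΔexon6/Δexon6, 43 and 30 in TbxtΔexon6/+ and 26 and 24 in TbxtinsASAY/insASAY libraries and was at -0.65 (adjusted p = 0.0414), -0.52 (adjusted p = 0.0989) and -1.16 (adjusted p = 0.00153). The TbxtΔexon6/Δexon6 call of Itga8 was weak. It was lost by DESeq2 (adjusted p = 0.24) and in edgeR with only the groups compared (adjusted p = 0.0751). Leaving out any 1 of the wild-type, TbxtΔexon6/Δexon6 or TbxtinsASAY/insASAY libraries ended it too, at log2 fold changes from -0.72 to -0.56.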
